A study of Mus musculus with 16 samples.

Results

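The complement system is a set of proteins that tag and clear microbes, dead cells and debris. Expression of 9 of its genes was measured in macrophages sorted as F4/80-positive cells from mouse muscle. They were taken by symbol: C1qa, C1qb and C1qc, which encode the A, B and C chains of C1q, then C3, C4b, Cfb and Cfp, which encode components of the activation pathways, and C3ar1 and C5ar1, which encode the receptors for the fragments C3a and C5a. All 9 were in the table of 24421 gene symbols, and all 9 passed the low-count filter that left 13649 genes for testing, with at least 501 counts in every library. RNA sequencing gave 16 libraries in 4 groups of 4, from Glud1-deficient (KO) CTX-injected muscle, WT CTX-injected muscle, KO normal muscle and WT normal muscle. The design text places the injected groups at the peak of muscle damage and normal muscle at baseline. CTX, the only name the labels give, is the usual abbreviation of cardiotoxin, a snake venom toxin that kills muscle fibres. Glud1 encodes glutamate dehydrogenase. The Cre driver or other means of the deletion, the strain, the age and the time after injection are not stated in the labels, nor is it stated whether each library came from 1 mouse, so p-values measure the spread between libraries, which may be technical.

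Complement can be switched on through C1q, which binds antibody or dying cells and, with its proteases, cleaves C4 and C2. The pathways meet at the cleavage of C3, and the alternative pathway, built from factor B (Cfb) and stabilised by properdin (Cfp), amplifies it. The small fragments C3a and C5a call and activate myeloid cells through C3ar1 and C5ar1. The liver makes most circulating complement, whereas macrophages are a main source of C1q and also make properdin.

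Library totals ran from 17051892 to 23097420 counts. Values are CPM, counts scaled to a common library size, scaled with TMM factors, which were 0.759 to 0.866 in CTX and 1.13 to 1.34 in normal libraries, with 14434 to 14886 detected genes in CTX and 16118 to 16846 in normal libraries. Xist marked 3 normal libraries as female, KO library 5 and WT libraries 5 and 6, and all CTX libraries as male. Glud1 itself averaged 338 CPM (SD 10.5) in KO CTX and 372 CPM (SD 19.9) in WT CTX libraries, and 240 CPM (SD 25.3) in KO normal and 255 CPM (SD 30.2) in WT normal libraries, with 4 libraries in each. The deleted part of the gene was not given, so these counts do not check the labels. The 8 pan-macrophage markers, Adgre1 (F4/80) among them, summed to 12430 to 17240 CPM in CTX and 5538 to 8354 CPM in normal libraries. Cd14 made up most of that difference (means of 7970 CPM in KO CTX and 1510 CPM in KO normal libraries). By group means, 5 of the 8 were higher in CTX libraries and 3, Csf1r, Mertk and Ptprc, were lower, in both genotypes. The 7 tissue-resident macrophage markers summed to 916 to 1763 CPM in CTX and 2727 to 5943 CPM in normal libraries, and the 5 monocyte markers to 2632 to 3297 CPM in CTX and 737 to 1667 CPM in normal libraries. Lower RNA per cell and fewer cells of a type cannot be told apart in these bulk libraries.

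The genes lie on chromosomes 4, 6, 7, 17 and X, all on the minus strand (GRCm38, GENCODE M21). C1qb (chr4:136880129-136886187), C1qc (chr4:136889804-136893065) and C1qa (chr4:136895917-136898803) are neighbours. C4b (chr17:34728380-34743882) and Cfb (chr17:34856374-34862518) lie in the same region of chromosome 17, and C3 (chr17:57203970-57228136) lies farther along it. Cfp (chrX:20925454-20931555) is X-linked, C3ar1 is at chr6:122847138-122856161 and C5ar1 at chr7:16246743-16259540. C4b shares 35.2% of its transcript 50-mers with its near copy C4a, so the split of reads between C4b and C4a is uncertain. Cfb shares 79.5% of its exon bases with the readthrough gene Gm20547, which had no entry in the count table.

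RefSeq promoters (GRCm38.p6, 250 bases before to 50 after the start) matched 6 of the 9 members. A total of 4 are shown, those of 2 C1q chain genes whose transcripts fell unequally, of C5ar1, the member with the largest rise, and of C3, the central component. Capitals mark AGGAAG on either strand in C1qb, C1qc and C5ar1, the letters around the GGAA core that ETS factors such as PU.1 bind. In C3, capitals mark TTGCNNAA on either strand, a C/EBP-type pattern.
C1qb (chr4:136886151-136886450, minus strand): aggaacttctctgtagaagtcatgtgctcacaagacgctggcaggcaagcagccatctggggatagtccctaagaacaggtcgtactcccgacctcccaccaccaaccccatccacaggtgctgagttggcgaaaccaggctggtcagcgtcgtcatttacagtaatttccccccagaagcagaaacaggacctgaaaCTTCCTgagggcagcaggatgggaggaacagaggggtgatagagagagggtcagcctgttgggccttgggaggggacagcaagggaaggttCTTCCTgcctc
C1qc (chr4:136892865-136893164, minus strand): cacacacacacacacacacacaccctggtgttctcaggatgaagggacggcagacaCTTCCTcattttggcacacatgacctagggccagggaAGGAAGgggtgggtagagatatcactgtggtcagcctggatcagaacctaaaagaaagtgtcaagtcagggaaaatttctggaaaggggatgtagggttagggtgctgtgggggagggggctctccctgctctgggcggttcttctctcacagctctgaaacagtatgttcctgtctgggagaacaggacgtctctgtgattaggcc
C5ar1 (chr7:16259289-16259588, minus strand): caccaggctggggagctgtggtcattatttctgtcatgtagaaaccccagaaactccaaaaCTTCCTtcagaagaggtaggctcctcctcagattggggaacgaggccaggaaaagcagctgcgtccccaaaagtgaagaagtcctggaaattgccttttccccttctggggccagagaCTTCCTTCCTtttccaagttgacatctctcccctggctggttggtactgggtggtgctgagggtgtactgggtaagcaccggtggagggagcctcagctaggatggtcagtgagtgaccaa
C3 (chr17:57228087-57228386, minus strand): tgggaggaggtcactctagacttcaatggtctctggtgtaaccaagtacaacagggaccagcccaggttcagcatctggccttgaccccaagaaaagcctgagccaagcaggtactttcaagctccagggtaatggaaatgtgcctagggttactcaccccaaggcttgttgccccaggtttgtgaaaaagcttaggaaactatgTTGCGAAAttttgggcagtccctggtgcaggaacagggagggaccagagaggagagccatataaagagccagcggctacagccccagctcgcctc

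AGGAAG occurred 2 times each in C1qb and C1qc, 3 times in C5ar1, where 2 matches share bases, and 1 time in C3ar1, and 0 times in C3 and Cfp. Of all 32851 promoters of this length in the table, 35.4% hold it. TTGCNNAA occurred in C3 alone among the 6, and in 10.8% of all promoters. TATAAA occurred in C3 and C3ar1 (13.6% of all promoters), TGANTCA in C3ar1 (7.81%), an NF-kB consensus in C1qc (8.46%) and TTCNNNGAA in none of the 6 (8.3%). All were searched on both strands. The matches are letters in a window and were not tested as binding sites.

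The C1q chain genes were lower in injured muscle in both genotypes. C1qa, the A chain gene, had 388, 425, 428 and 403 CPM in KO CTX libraries 1 to 4, against 795, 1046, 915 and 1080 CPM in KO normal libraries 1, 2, 3 and 5. In WT it had 351, 313, 401 and 504 CPM in CTX libraries 1 to 4, against 1077, 903, 1611 and 954 CPM in normal libraries 2, 3, 5 and 6. Every CTX library was below every normal one in both genotypes. C1qa fell by 1.22 on the log2 scale in KO (SE 0.18, edgeR adjusted p 1.85e-05) and fell by 1.54 in WT (SE 0.18, edgeR adjusted p 1.90e-06).

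C1qc, the C chain gene, followed C1qa closely. It had 457, 471, 502 and 488 CPM in KO CTX libraries and 966, 1252, 1103 and 1284 CPM in KO normal libraries. In WT it had 416, 376, 450 and 585 CPM in CTX libraries and 1350, 1106, 1910 and 1092 CPM in normal libraries, again with no overlap. C1qc fell by 1.26 on the log2 scale in KO (SE 0.18, edgeR adjusted p 9.87e-06) and fell by 1.58 in WT (SE 0.18, edgeR adjusted p 1.04e-06).

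C1qb, the B chain gene, fell less. It had 969, 1021, 979 and 964 CPM in KO CTX libraries and 1210, 1521, 1372 and 1581 CPM in KO normal libraries. WT libraries had 924, 820, 959 and 1211 CPM after CTX and 1563, 1439, 2395 and 1468 CPM in normal muscle. The groups did not overlap in either genotype, with changes of -0.53 in KO (SE 0.16, edgeR adjusted p 0.00802) and -0.81 in WT (SE 0.16, edgeR adjusted p 0.000349).

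**Figure D1:**
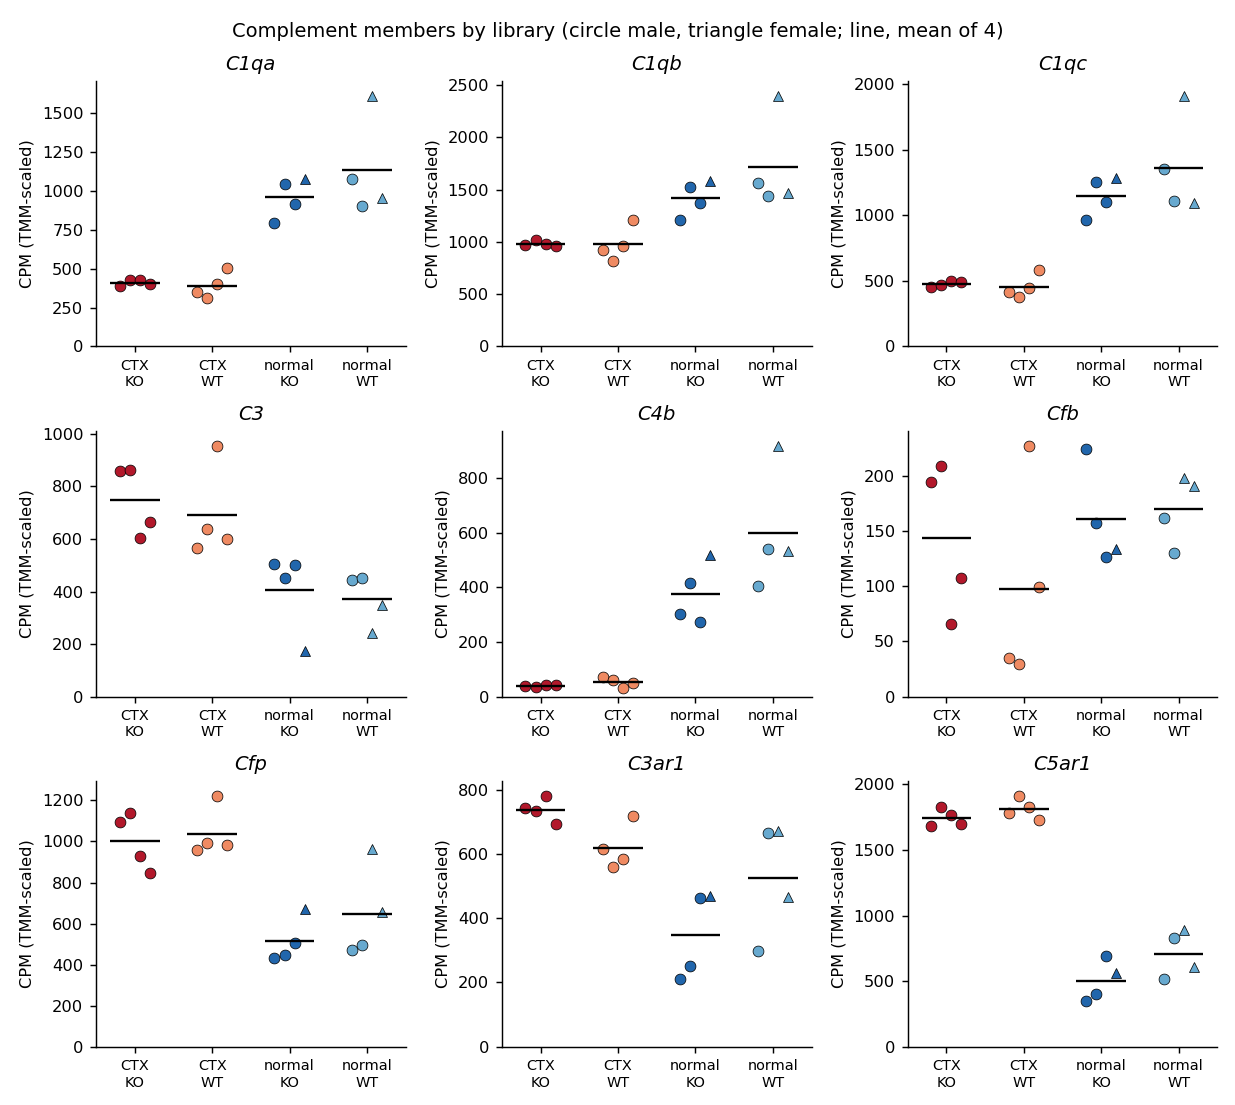
CPM (TMM-scaled, linear axes from 0) of each member in every library, with circles for male and triangles for female libraries and a line at the mean of 4. The C1q chain genes and C4b lie lower in all CTX than in all normal libraries of the same genotype, C5ar1 and C3 lie higher, and Cfb overlaps.

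The balance among the chain transcripts differed with injury. Mature C1q holds the A, B and C chains in equal numbers, and the ratios below are of RPKM, CPM per kilobase of annotated exons, so that the genes can be set beside each other. The log2 ratio of C1qb to C1qa was 1.13 to 1.25 in KO CTX and 1.19 to 1.33 in WT CTX libraries, and 0.48 to 0.54 in KO normal and 0.47 to 0.61 in WT normal libraries. The ratio of C1qb to C1qc was 1.79 to 1.98 across CTX libraries and 1.04 to 1.25 across normal libraries. Both ratios separated all 8 CTX from all 8 normal libraries. The ratio of C1qc to C1qa stayed between -0.74 and -0.57 in all 16 libraries, and its CTX and normal ranges overlapped. The size of both ratios with C1qc depends on the length taken for it, 1931 bases of annotated exons here and 1203 in its longest transcript. That choice shifts all libraries equally, so the differences between libraries do not depend on it. Scaling between libraries cancels in these ratios. They follow from the same counts as the changes above, and no test was added to them. Counted together, the 3 chain genes took 0.148% to 0.161% of all counts in KO CTX and 0.117% to 0.187% in WT CTX libraries, and 0.390% to 0.513% in KO normal and 0.391% to 0.692% in WT normal libraries.

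**Figure D2:**
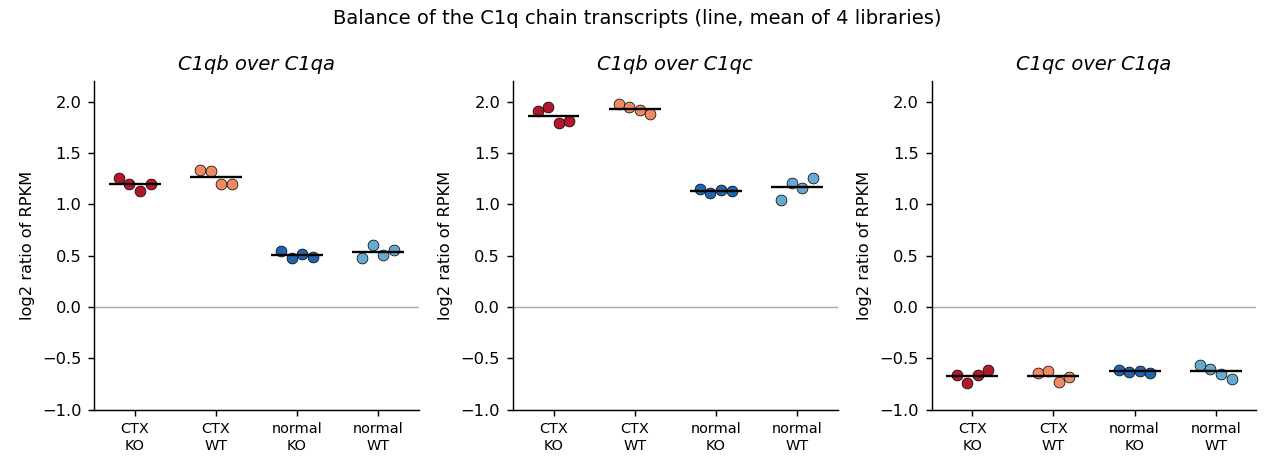
Log2 ratio of RPKM between C1q chain genes in each library, with a line at the mean of 4. C1qb over C1qa lies at 1.13 or above in CTX and at 0.61 or below in normal libraries, whereas the CTX and normal ranges of C1qc over C1qa overlap.

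C4b encodes the mouse C4 component that C1s cleaves, and it had the largest change of the 9. It had 39.0, 34.2, 43.0 and 42.9 CPM in KO CTX libraries, against 301, 417, 274 and 518 CPM in KO normal libraries. WT CTX libraries had 71.8, 62.4, 33.3 and 49.2 CPM, against 404, 541, 917 and 534 CPM in WT normal libraries. The groups were far apart in both genotypes. C4b fell by 3.25 on the log2 scale in KO (SE 0.28, edgeR adjusted p 6.99e-08) and fell by 3.47 in WT (SE 0.29, edgeR adjusted p 3.74e-08). The 8 fibroblast markers moved the same way, with sums of 83.5 to 123 CPM in CTX and 214 to 939 CPM in normal libraries. Within normal muscle, C4b was highest in WT library 5, where these markers summed to 277 CPM, and lowest in KO library 3, where they summed to 939 CPM. Those libraries also differ in genotype, number and sex by Xist. The other normal libraries had C4b at 301 to 541 CPM and marker sums of 214 to 654 CPM. Dendritic cell markers (6 genes) summed to 28.8 to 50.5 CPM in CTX and 232 to 505 CPM in normal libraries. By group means, 5 of these 6 were lower in CTX libraries, Cd209a most of all (4.28 CPM in KO CTX and 251 CPM in KO normal libraries), whereas Xcr1 was higher (19.9 CPM in KO CTX and 10.9 CPM in KO normal libraries). No gene of either list was at 0 in all CTX or all normal libraries, and the part of either cell type in the change of C4b was not tested.

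C3, the component on which the pathways meet, was higher after CTX with TMM scaling. It had 858, 863, 604 and 665 CPM in KO CTX libraries, against 503, 451, 501 and 174 CPM in KO normal libraries. WT CTX libraries had 567, 638, 953 and 602 CPM, against 444, 453, 241 and 347 CPM in WT normal libraries. The groups did not overlap in either genotype, although the nearest libraries were only 101 CPM apart in KO and 114 CPM apart in WT. C3 rose by 0.88 in KO (SE 0.29, edgeR adjusted p 0.0118) and by 0.89 in WT (SE 0.29, edgeR adjusted p 0.0107), calls that ended with library totals only (0.26 and 0.27, edgeR adjusted p 0.414 and 0.397). In normal muscle the 3 female libraries had 174 to 347 CPM and the 5 male ones 444 to 503 CPM, without overlap. The female libraries are those numbered 5 and 6, and no male normal library has these numbers. Sex and library number therefore cannot be told apart. With male libraries only, the changes were 0.61 in KO (edgeR adjusted p 0.0110) and 0.62 in WT (edgeR adjusted p 0.0232).

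Cfp encodes properdin, which steadies the alternative pathway convertase. It had 1096, 1140, 931 and 846 CPM in KO CTX libraries, against 432, 446, 505 and 669 CPM in KO normal libraries, with no overlap. WT CTX libraries had 956, 990, 1220 and 982 CPM, against 470, 495, 961 and 656 CPM in WT normal libraries, where library 5 lay just above the lowest CTX library. Cfp rose by 0.97 in KO (SE 0.21, edgeR adjusted p 0.000539) and by 0.68 in WT (SE 0.21, edgeR adjusted p 0.00709), and with library totals only neither call held (0.36 and 0.07, edgeR adjusted p 0.0909 and 0.743). The 3 female normal libraries had 656 to 961 CPM and the 5 male ones 432 to 505 CPM, without overlap, and here too sex cannot be told apart from library number. With male libraries only, the changes were 1.11 in KO (edgeR adjusted p 1.36e-05) and 1.10 in WT (edgeR adjusted p 6.49e-05).

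Cfb, which encodes the protease factor B, varied most of the 9 within the CTX groups. It had 194, 208, 66.1 and 107 CPM in KO CTX libraries and 225, 157, 127 and 134 CPM in KO normal libraries. WT CTX libraries had 34.9, 29.9, 227 and 99.2 CPM and WT normal libraries 162, 130, 198 and 190 CPM. CTX and normal libraries overlapped in both genotypes, and the log2 differences of -0.16 in KO (SE 0.50, edgeR adjusted p 0.785) and -0.80 in WT (SE 0.50, edgeR adjusted p 0.161) did not pass the threshold. In WT, 1 library decided the call: without CTX library 3 the difference was -1.63 (edgeR adjusted p 0.00347). It was also past the threshold with library totals only (-1.43, edgeR adjusted p 0.0158) and with limma voom and quality weights (-1.76, adjusted p 0.00963).

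The spread of Cfb among CTX libraries was matched in other members, an order noticed after the values were seen and given here as a description. WT library 3, KO library 2 and KO library 1 had the 3 highest Cfb values among the 8 CTX libraries (227, 208 and 194 CPM). The same 3 libraries had the highest C3 (953, 863 and 858 CPM) and the highest Cfp (1220, 1140 and 1096 CPM). They also had the lowest C4b (33.3, 34.2 and 39.0 CPM). The order was not particular to complement genes: these libraries also had the highest Adgre1, which encodes the sort marker F4/80 (1254, 1166 and 1005 CPM), and the highest Saa3, an acute-phase gene (5084, 882 and 508 CPM). The order crossed the genotypes, and C1qa showed none of it, since KO libraries 1 and 2 (388 and 425 CPM) lay on either side of WT library 3 (401 CPM) in the middle of the CTX range.

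**Figure D3:**
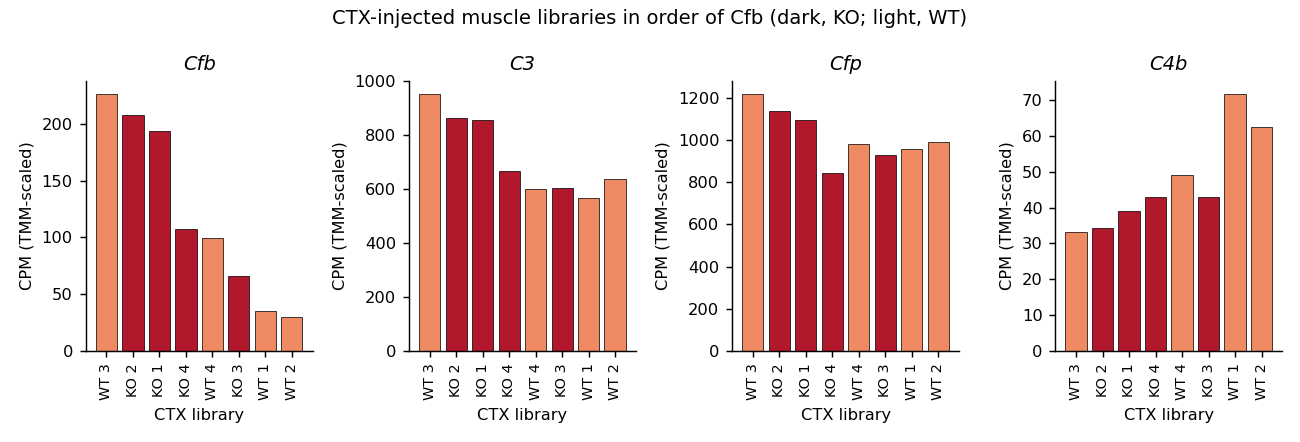
CPM (TMM-scaled, bars from 0) of Cfb, C3, Cfp and C4b in the 8 CTX libraries, all panels in the order of Cfb, dark for KO and light for WT. The 3 libraries at the left hold the 3 highest values of C3 and Cfp and the 3 lowest of C4b.

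C5ar1, the C5a receptor gene, had the largest rise. It had 1681, 1824, 1770 and 1698 CPM in KO CTX libraries, against 349, 403, 694 and 559 CPM in KO normal libraries. WT CTX libraries had 1785, 1909, 1824 and 1730 CPM, against 520, 825, 886 and 607 CPM in WT normal libraries. Every CTX library was at least at 1681 CPM and every normal one at most at 886 CPM. C5ar1 rose by 1.80 in KO (SE 0.20, edgeR adjusted p 8.75e-07) and by 1.35 in WT (SE 0.20, edgeR adjusted p 1.57e-05), and it remained past the threshold with library totals only (1.20 and 0.75). Neutrophils also carry this receptor, and 7 of the 8 neutrophil markers, those in the table, summed to 316 to 986 CPM in CTX and 275 to 4090 CPM in normal libraries, so the 2 ranges overlapped. Monocyte markers, given above, were higher in CTX libraries, and their part in the rise was not tested.

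C3ar1, the C3a receptor gene, had 743, 733, 780 and 695 CPM in KO CTX libraries, against 210, 250, 463 and 468 CPM in KO normal libraries, with no overlap. WT CTX libraries had 616, 561, 586 and 718 CPM and WT normal libraries 297, 665, 671 and 466 CPM, which overlapped. C3ar1 rose by 1.08 in KO (SE 0.26, edgeR adjusted p 0.00147), a call that ended with library totals only (0.49, edgeR adjusted p 0.0628). In WT the difference was 0.24 (SE 0.26, edgeR adjusted p 0.412), and -0.35 with library totals only (edgeR adjusted p 0.175). The injury effects were not shown to differ between the genotypes: the interaction was 0.84 (SE 0.37), with an unadjusted p of 0.0349 and an edgeR adjusted p of 0.984.

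In all, 4 of the 9 members rose and 4 fell with injury in KO, and 3 rose and 4 fell in WT. Among all genes tested, 33.3% were called up and 40.2% down in KO, and 33.3% up and 39.4% down in WT, so the members' shares were near those of all genes and are not a result about complement. Groups did not overlap for 4 members above and 4 below in KO (31.3% and 35.5% of all genes) and for 2 above and 4 below in WT (30.6% and 34.9% of all genes). The median log2 change of the 9 was -0.16 in KO and -0.80 in WT, against -0.16 in KO and -0.15 in WT over all genes. Both medians of the 9 are the values of Cfb, which was not called in either genotype. Its WT value depended on 1 library, as given above, so the medians do not describe a fall of the set. With library totals only, the median gene shifted by a further -0.61 in KO and -0.62 in WT, and calls over all genes were 1920 up and 8398 down in KO and 1944 up and 8345 down in WT, in place of 4549 up and 5491 down in KO and 4551 up and 5378 down in WT with TMM. Set against the median gene of each scaling, C3 was 1.03 above it in KO with TMM and 1.02 with library totals, and C5ar1 was 1.96 above it with TMM and 1.97 with library totals. Rescaling moves all genes by about the same amount, so this likeness was fixed beforehand. It does not show which scaling is right.

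**Figure D4:**
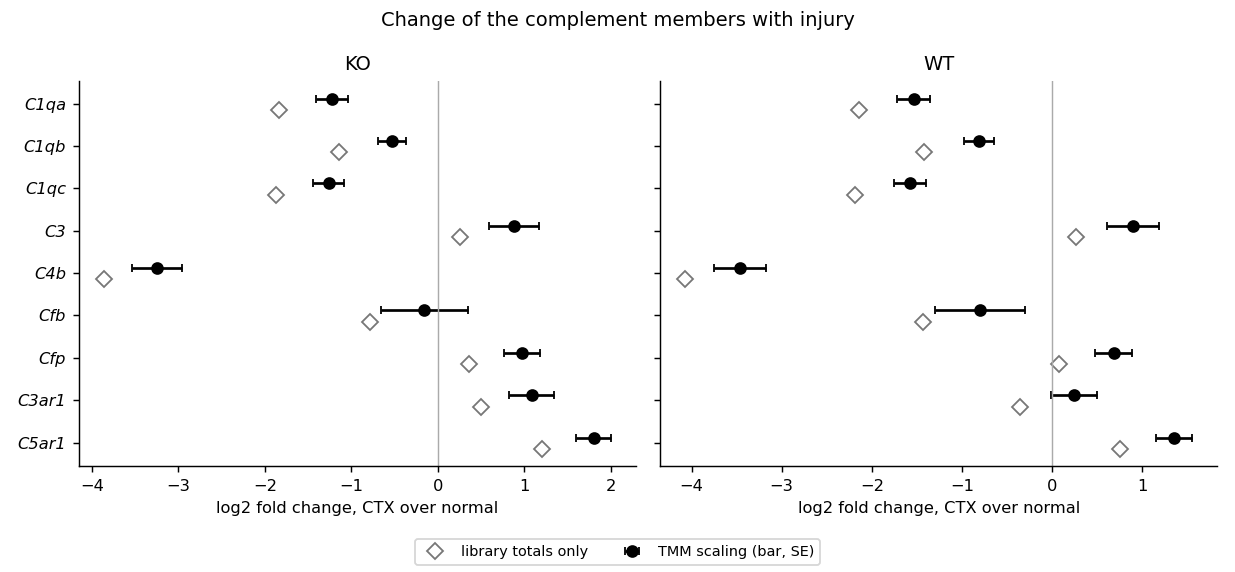
Log2 fold change of each member, CTX over normal, in KO (left) and WT (right), with black circles and SE bars for TMM scaling and open diamonds for library totals only. All points move left by about the same amount with library totals, which brings C3, Cfp and C3ar1 to 0.49 or below and turns C3ar1 negative in WT.

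No member was called between the genotypes. In CTX-injected muscle, KO minus WT log2 differences were 0.07 for C1qa, 0.01 for C1qb, 0.07 for C1qc, 0.12 for C3, -0.45 for C4b, 0.56 for Cfb, -0.05 for Cfp, 0.25 for C3ar1 and -0.06 for C5ar1. For Cfb, 1 library moved the value: without WT CTX library 3 it was 1.40 (edgeR unadjusted p 0.00503, adjusted p 0.351), and limma voom with quality weights gave 1.29 (unadjusted p 0.00928, adjusted p 0.194). With edgeR on all 16 libraries no member had an unadjusted p under 0.05, and the share of all genes called was 0.00733%. C4b averaged 39.8 ± 4.17 CPM in KO and 54.2 ± 16.7 CPM in WT CTX libraries, and C3ar1 738 ± 34.8 CPM in KO and 620 ± 69.3 CPM in WT (SD, n = 4 each). KO and WT libraries overlapped for both, with exact two-sided permutation p of 0.171 for C4b and 0.0571 for C3ar1. The SE of the difference was 0.16 for C1qb and 0.50 for Cfb, so the data limit a genotype difference far more tightly for C1qb.

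In normal muscle, 8 of the 9 differences were below 0 in KO, again with no call and 0% of all genes called. Over all genes the median difference was 0.0038, and the share below 0 was not counted. Members such as C1qa and C1qc vary together, so the 8 are not independent. The 7 tissue-resident macrophage markers had lower sums in KO as well, 2727 to 3503 CPM in KO and 3574 to 5943 CPM in WT normal libraries. By group means Timd4 alone of the 7 was higher in KO (291 CPM, against 235 CPM in WT normal libraries). The part of these markers in the differences of the members was not tested. C4b averaged 377 ± 112 CPM in KO and 599 ± 221 CPM in WT (log2 -0.67, SE 0.26, unadjusted edgeR p 0.0211). C3ar1 averaged 348 ± 137 CPM in KO, against 525 ± 179 CPM in WT (log2 -0.59, SE 0.26, unadjusted edgeR p 0.0362). C5ar1 averaged 501 ± 156 CPM in KO, against 710 ± 174 CPM in WT (log2 -0.50, SE 0.20, unadjusted edgeR p 0.0203). The edgeR adjusted p was 0.991 for each, and KO and WT libraries overlapped for all 3. Normal libraries with the numbers 2, 3 and 5 exist in both genotypes and can be set side by side. C5ar1 was at 403, 694 and 559 CPM in those KO libraries, against 520, 825 and 886 CPM in the WT libraries of the same number. C3ar1 was at 250, 463 and 468 CPM in KO, against 297, 665 and 671 CPM in WT. KO was lower in 3 of 3 pairs for C5ar1, C3ar1, C1qb, C1qc and Cfb, in 2 of 3 for C1qa, C4b and Cfp, and in 1 of 3 for C3. In the pair numbered 5, KO was lower for every member, so that pair enters all of these counts. For C1qb, C1qc and Cfb that pair held nearly all of the difference, with log2 values of -0.60, -0.57 and -0.56. In pairs 2 and 3 the values were -0.04 and -0.07 for C1qb, -0.11 and -0.0037 for C1qc, and -0.04 and -0.03 for Cfb. The share of all genes lower in 3 of 3 pairs was not counted.

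The fit with number as a replicate block in the normal libraries alone gave -0.43 for C5ar1 (edgeR adjusted p 0.612) and -0.43 for C3ar1 (edgeR adjusted p 0.590) and called no member. The interaction over all genes also had 0% called. Over all genes, an unadjusted p under 0.05 was found for 910 genes between KO and WT in CTX-injected muscle, 390 in normal muscle and 646 for the interaction. DESeq2 called 43 genes in CTX-injected muscle, 0 in normal muscle and 48 for the interaction, and limma voom with quality weights 112, 0 and 11, none of them a member.

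Levels can be ordered within a group only per length. On the RPKM scale C1qb was the highest member in all 4 groups, at 904 ± 23.6 in KO CTX, 899 ± 153 in WT CTX, 1306 ± 152 in KO normal and 1578 ± 418 in WT normal libraries (SD, n = 4 each). In CTX libraries C5ar1 came next (678 ± 25.7 in KO and 705 ± 29.3 in WT), then Cfp (578 ± 79.6 in KO and 597 ± 70.7 in WT), with overlapping ranges for the pair. C1qa followed at 395 ± 18.2 in KO and 377 ± 79.8 in WT CTX libraries. C3ar1 (171 and 144) and C3 (145 and 134) overlapped, Cfb lay below them (51.0 and 34.6), and C4b was last (6.98 ± 0.732 in KO and 9.51 ± 2.94 in WT), with a range that met that of Cfb in WT alone.

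In normal libraries C1qa was second (922 ± 126 RPKM in KO and 1092 ± 312 RPKM in WT), overlapping C1qb in WT, and Cfp (296 in KO, 372 in WT) and C5ar1 (195 in KO, 276 in WT) overlapped below the C1q genes. C3, C3ar1, C4b and Cfb, at means of 56.8 to 80.8 RPKM in KO and 60.2 to 122 RPKM in WT normal libraries, filled the last places, and neighbours among them overlapped. The place of C1qc depends on its length: on all annotated exons it had 248 RPKM in KO CTX and 596 RPKM in KO normal libraries, and on its longest transcript 399 RPKM in KO CTX and 957 RPKM in KO normal libraries, close to C1qa.

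The other genes of the complement system were taken from a list of roles. The count table held 52 of them, and 31 of these were tested. In KO, 8 rose and 18 fell with injury, and in WT 8 rose and 19 fell, with medians of -1.91 in KO and -1.71 in WT. Among all genes, 33.3% were called up in each genotype and 40.2% down in KO and 39.4% down in WT, with medians of -0.16 in KO and -0.15 in WT. With library totals only, 6 of the 31 rose and 22 fell in KO, and 6 rose and 21 fell in WT, against 1920 up and 8398 down in KO and 1944 up and 8345 down in WT among the 13649 genes. The role counts below are small and stand beside those same shares of all genes. None was called between genotypes or for the interaction. The remaining 21 had at most 19 counts in any library, and Mbl1, Mbl2, C8b and C4bp were listed at 0.

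Among recognition molecules, 1 of 4 rose and 2 fell in KO, and 1 rose and 3 fell in WT. Fcna, which encodes ficolin A, a lectin-pathway sensor, averaged 6.33 ± 3.07 CPM in KO CTX and 184 ± 36.6 CPM in KO normal libraries (log2 -4.85, edgeR adjusted p 4.12e-08), and the change in WT was -6.19. Colec12, a collectin receptor, fell by 2.43 in KO and fell by 2.65 in WT. Ptx3, which encodes the C1q-binding pentraxin 3, rose by 2.83 in KO and 2.79 in WT, at low levels throughout, 2.73 CPM in KO CTX and 0.386 CPM in KO normal libraries.

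Among proteases, 4 of 5 fell in both genotypes (40.2% of all genes in KO and 39.4% in WT). Of these, Cfd was near the floor, with group means of 0.0412 to 0.454 CPM. Its CTX and normal libraries overlapped in both genotypes (edgeR adjusted p 0.0420 in KO and 0.0147 in WT). C2, which with C4 forms the classical C3 convertase, averaged 0.860 ± 0.329 CPM in KO CTX and 26.0 ± 3.38 CPM in KO normal libraries, and 0.908 ± 0.726 CPM in WT CTX and 30.0 ± 6.85 CPM in WT normal libraries (log2 -4.91 in KO and -5.03 in WT). C1ra and C1s1, whose products are the proteases carried by C1q, changed by -0.95 and -2.50 in KO and by -1.95 and -1.92 in WT, at means of 3.44 to 13.2 CPM for C1ra and 0.832 to 4.77 CPM for C1s1 across the groups. C4a changed by -2.22 in KO and by -2.28 in WT, at means of at most 1.52 CPM, with the reservation on its shared sequence with C4b given above.

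Among genes of the membrane attack complex, the pore that complement builds, 3 of 3 fell in KO and 2 of 3 in WT (40.2% of all genes in KO and 39.4% in WT). C6 averaged 0.247 ± 0.169 CPM in KO CTX and 31.9 ± 19.8 CPM in KO normal libraries (log2 -6.97, edgeR adjusted p 3.82e-07), and fell by 6.13 in WT. C8g changed by -0.80 in KO and by -0.93 in WT, and C7 fell by 3.05 in KO but was not called in WT (-0.94, edgeR adjusted p 0.416). C7 was low, with group means of 0.266 to 2.21 CPM, and its CTX and normal libraries overlapped in both genotypes. With male libraries only, C7 was called in both (-3.47 in KO and -1.87 in WT, edgeR adjusted p 4.01e-05 and 0.00513).

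Among soluble regulators, Serping1, which encodes the C1 inhibitor, fell by 2.51 in KO and fell by 1.49 in WT. Clu, which encodes clusterin, a blocker of pore assembly, changed by -4.25 in KO and by -3.33 in WT. The fibroblast marker sums given beside C4b were lower in CTX libraries too, and their part in these falls was not tested.

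Among membrane regulators, 1 of 4 fell in KO, and 1 rose and 2 fell in WT. Cd55, which encodes decay-accelerating factor, changed by -2.87 in KO and by -2.74 in WT. Cd46 was called in WT alone (-2.57, edgeR adjusted p 0.0111) at means of at most 0.544 CPM. Cr1l, the mouse regulator Crry, was at 55.9 ± 2.27 CPM in KO CTX and 47.6 ± 5.86 CPM in KO normal libraries, a difference of 0.23 that was not called, and it rose by 0.27 in WT, a direction that turned to -0.34 with library totals only.

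The list placed 10 genes outside the 9 members under receptors, genes of C1q-binding proteins among them, so the count is not of complement receptors alone. Of the 10, 7 rose and 3 fell in KO, and 6 rose and 3 fell in WT. Among all genes, 33.3% were up in each, 40.2% down in KO and 39.4% down in WT. Itgam and Itgb2 encode the chains of complement receptor 3, which binds a C3 fragment. Itgam averaged 2445 ± 170 CPM in KO CTX and 595 ± 61.5 CPM in KO normal libraries, and 2641 ± 382 CPM in WT CTX and 667 ± 79.0 CPM in WT normal libraries (log2 2.04 in KO and 1.98 in WT). Itgb2 rose by 2.08 in KO and 1.94 in WT, and Calr, which encodes calreticulin, a C1q-binding protein, by 1.61 in KO and 1.51 in WT. C5ar2, the other C5a receptor gene, was called in KO (0.53, edgeR adjusted p 0.0338) and not in WT (0.47, edgeR adjusted p 0.0565). Both differences turned negative with library totals only (-0.06 in KO and -0.13 in WT). C5ar2 was called in both genotypes with male libraries only (0.73 in each, edgeR adjusted p 0.00424 in KO and 0.0109 in WT).

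**Figure D5:**
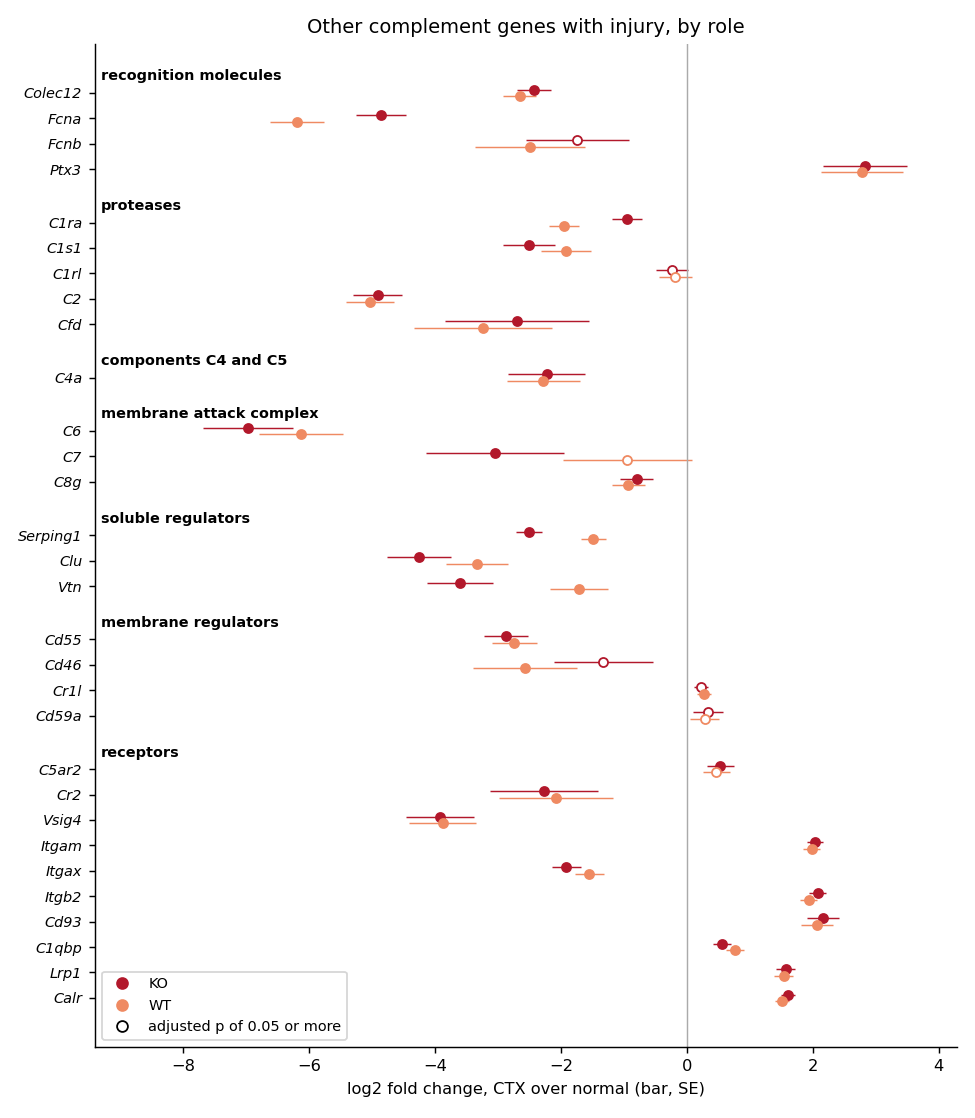
Log2 fold change, CTX over normal, with SE bars, of tested complement genes outside the 9 members, grouped by role, dark for KO and light for WT, with open points where the edgeR adjusted p was 0.05 or more. The soluble regulators shown lie below 0, and the genes listed under receptors lie on both sides.

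Likeness of pattern was measured as the mean absolute difference of log2 CPM over the 16 libraries after centring each gene on its own mean, among 7964 genes. C1qa and C1qc were 0.0343 apart, nearer to each other than either was to any other gene compared. Outside the members, the genes nearest to C1qa were Rab11fip5 (0.104), Apoe (0.121) and Ckb (0.140), and those nearest to C1qc were Rab11fip5 (0.103), Apoe (0.104) and Serinc3 (0.132). C1qb was 0.354 from C1qa, and 1971 other genes were nearer to it, among them Sec14l1 (0.101) and Cd37 (0.109). The nearest to C5ar1 were Ptafr (0.0896), Tuba1c (0.0902) and Slc3a2 (0.111). For Cfp they were Atp6v0b (0.135), Sertad1 (0.141) and Nupr1 (0.148), and for C3ar1 Eif1a (0.143), Eps8 (0.151) and Rgl1 (0.157). C3 had Tmsb10 (0.196), Sirpb1b (0.202) and Dcun1d3 (0.203) as its nearest, and C4b had Igfbp4 (0.224), Cxcl12 (0.266) and Rhbdf1 (0.282). Cfb had Siglec1 (0.236), Il18bp (0.267) and Ifit3 (0.291), the largest nearest-gene distance of the 9. The measure runs over CTX and normal libraries together, so a shared difference between them counts as likeness.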

How the data were processed

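Per the labels' protocols, cDNA of the F4/80-positive cells was made with SMART-Seq V4, which does not mark strand. The deposited values were raw read counts per gene symbol. The submitters' processing notes name the mm10 build, Subread 1.6.2 with featureCounts, HISAT2 2.1.0, cutadapt 1.18 and FastQC 0.11.7. Neither the annotation behind the counts nor the handling of multi-mapping reads is stated in the sources used here.

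Counts were analysed in R 4.3.3 with edgeR 4.0.16: filterByExpr by group, TMM factors, 1 coefficient per group over 16 libraries, the quasi-likelihood test, and Benjamini-Hochberg adjustment over 13649 genes with a threshold of 0.05. The SE of a log2 change was its size divided by the square root of the F statistic. A total of 5 comparisons was made: CTX over normal in each genotype, KO over WT in each tissue, and the interaction. Exact two-sided permutation tests of CPM cannot go below 0.0286 with 4 against 4. The script was tested on simulated data. Alternatives were RLE size factors, library totals only, DESeq2 1.42.0, limma 3.58.1 voom with quality weights, no filter, a filter of 5 CPM, only the 2 groups compared, a replicate block, male libraries only, each library left out in turn, and, added after the data were seen, the block in normal libraries alone.

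The members and lists were chosen with earlier results of these data known. Named complement genes are the 3 of each role with the smallest p in CTX over normal in WT. To these, C5ar2 and Cfd were added after their values were seen. Nearest genes are the 3 of smallest distance with a mean CPM of at least 10. Some genes that these rules would name are not reported here. Pairs of libraries of 1 group differed by more than sampling noise (chi-square per degree of freedom 6.02 to 97.3), so none was counted as a duplicate. The numbers come from the sample titles, which do not say what they mark. Deviations of same-numbered libraries from their group means correlated at 0.244 to 0.644 between KO and WT in normal muscle (3 pairs), each above the limit of 0.1 set for pairing, and at -0.124 to 0.005 in CTX-injected muscle (4 pairs), which were not. Number was not the only axis: among the 13 normal pairs of different numbers, KO 5 with WT 6 reached 0.588, above KO 5 with WT 5 (0.244; all 3 female), and KO 1 with WT 2 reached 0.467. Amplified reads carry no molecular identifiers, so counts are not numbers of independent molecules.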

Additional observations from a re-analysis of the deposited data

Results flagged for a closer look

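For each member, the 4 libraries of each group were checked for 1 library far from the other 3, by Dixon's criterion at the 95% level. Of 36 such groups 3 were marked, and chance marks about 1 in 20. C1qb was at 2395 CPM in WT normal library 5, against 1439 to 1563 CPM in the other WT normal libraries. C3 was at 173.8 CPM in KO normal library 5, against 451 to 503 CPM in the other KO normal libraries. Cfp was at 1220 CPM in WT CTX library 3, against 956 to 990 CPM in the other WT CTX libraries. Both normal libraries marked here are female by Xist. Without them or WT CTX library 3, no call of C1qb, C3 or Cfp with injury was lost.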

How the results depend on the processing

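Only library totals moved a count of members called by over 1.5 times: 5 were called with injury in KO (1 up, 4 down), in place of 8. C1qa, C1qb, C1qc, C4b and C5ar1 kept their direction and their calls with injury in both genotypes under all 17 alternatives. Sign changes of differences that were not called were as follows. With library totals only, C3ar1 with injury in WT was -0.3535, and KO over WT was 0.0398 for Cfp and 0.0338 for C5ar1 in CTX and 0.007 for Cfb in normal muscle, where Cfb was 0.2456 with male libraries only. With a replicate block, C3 was -0.057 for KO over WT in normal muscle (-0.1023 in normal libraries alone) and 0.1833 for the interaction; the block changed no call of a member. Leaving out each library in turn gave -0.3873 to 0.0851 for Cfb with injury in KO. For KO over WT in CTX it gave -0.0262 to 0.2137 for C1qa, -0.0695 to 0.1267 for C1qb, -0.0131 to 0.2122 for C1qc and -0.1154 to 0.0385 for Cfp. For KO over WT in normal muscle it gave -0.2822 to 0.0267 for Cfb, and for the interaction -0.2834 to 0.1782 for C3 and -0.0519 to 0.411 for C4b. The cause of these changes was not tested. Every member had at least 501 counts per library, so the spread between libraries, not depth, limits these comparisons.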
